A study of Mus musculus with 60 samples.

Results

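Heat shock proteins and other chaperones, 48 genes chosen by name from the HSP70, HSP110, HSP90, small heat shock protein, J-domain, BAG, chaperonin and heat shock factor families, were followed in the heart, gastrocnemius muscle and neocortex of ageing mice. Of these, 45 had a probe set of their own (113 probe sets in all), among 18193 genes and 45101 probe sets on the array. Hsf1 and Hsp90ab1 were named by no probe set used here, and both probe sets of Ptges3 also carried the symbol of a processed copy, so none of these 3 genes was measured. All mice were male B6C3F1 animals, the F1 hybrids of C57BL/6 and C3H/He, housed singly and fed diets based on AIN93M. The 4 groups were young controls of 5 months on control diet, old controls of 30 months on the same diet, old mice of 30 months on calorie restriction (CR), labelled 40%, from 14 months, and old mice of 30 months given resveratrol at 4.9 mg/kg, also from 14 months. The study's methods describe a milder restriction than the labels do. Each group was represented by 5 arrays per tissue, 60 arrays in total, labelled biological replicates, and the labels do not state whether the 3 tissues came from the same mice. The question addressed for each tissue was which chaperone transcripts differed with age, and which differed in old mice on CR or on resveratrol.

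Chaperones bind unfolded or partly folded proteins and keep them from aggregating. HSP70 proteins do this in cycles driven by ATP, with J-domain proteins delivering clients and BAG and HSP110 proteins exchanging the bound nucleotide, while HSP90 matures kinases and nuclear receptors with its own co-chaperones. Small heat shock proteins hold unfolding clients without ATP and are abundant in striated muscle, where Hspb1, Hspb8, Cryab and Bag3 act on the contractile apparatus and on its clearance by autophagy. Heat shock factor 1 induces many of the cytosolic chaperones under proteotoxic stress, whereas the chaperones of the endoplasmic reticulum are induced by the unfolded protein response. In bulk tissue, fewer cells of a type and less RNA per cell cannot be told apart.

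The promoters of members on both routes of induction are shown because the groups of cytosolic and endoplasmic reticulum chaperones are described separately. RefSeq promoter windows (mouse build GRCm38.p6, from 250 bases before to 50 bases after each start site) were matched for 40 of the 48 genes. Both strands were searched for heat shock elements, spelled GAANNTTC for a pair of units and GAANNTTCNNGAA for 3 units (the longer contains the shorter), and for the endoplasmic reticulum stress element, spelled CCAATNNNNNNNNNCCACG. In the 6 stretches of 150 bases below, printed 5′ to 3′ on the strand of the gene, capitals mark the matches (3-unit heat shock elements in Hspe1 and Dnajb6, where those of Hspe1 overlap and lie on both strands, 2-unit elements in Hspa1b and Hspb1, stress elements in Hspa5 and Dnajc3).
Hspa1b chr17:34959239-34959388 (minus strand): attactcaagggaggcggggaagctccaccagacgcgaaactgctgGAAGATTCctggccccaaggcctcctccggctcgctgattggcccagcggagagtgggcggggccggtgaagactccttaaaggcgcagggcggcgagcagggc
Hspb1 chr5:135887769-135887918 (plus strand): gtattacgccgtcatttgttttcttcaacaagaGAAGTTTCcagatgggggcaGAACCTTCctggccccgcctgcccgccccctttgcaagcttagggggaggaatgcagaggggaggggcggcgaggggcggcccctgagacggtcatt
Hspe1 chr1:55087998-55088147 (plus strand): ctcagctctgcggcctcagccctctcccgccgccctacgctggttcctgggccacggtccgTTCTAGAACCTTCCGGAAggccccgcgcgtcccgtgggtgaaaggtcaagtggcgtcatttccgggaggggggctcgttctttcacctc
Dnajb6 chr5:29735748-29735897 (plus strand): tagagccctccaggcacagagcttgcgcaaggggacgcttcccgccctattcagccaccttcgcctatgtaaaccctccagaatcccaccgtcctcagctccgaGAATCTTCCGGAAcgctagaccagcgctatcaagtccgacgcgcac
Hspa5 chr2:34771940-34772089 (plus strand): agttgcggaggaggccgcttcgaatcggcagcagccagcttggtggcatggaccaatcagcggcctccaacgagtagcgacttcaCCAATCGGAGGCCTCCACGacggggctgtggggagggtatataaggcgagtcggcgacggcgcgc
Dnajc3 chr14:118937782-118937931 (plus strand): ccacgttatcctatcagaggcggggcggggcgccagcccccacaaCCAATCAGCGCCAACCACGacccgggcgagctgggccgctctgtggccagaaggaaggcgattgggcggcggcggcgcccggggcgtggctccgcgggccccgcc
The 3-unit heat shock element was present in 5 of the 40 genes (12.5%; Chordc1, Dnajb6, Hspd1, Hspe1 and Hsph1) and in 0.662% of all 27025 genes with a window. The 2-unit element was found in 37.5% of the members against 9.04% of all genes, and the endoplasmic reticulum stress element in 7.5% (Hspa5, Hsp90b1 and Dnajc3) against 0.137%. Another 2-unit arrangement, TTCNNGAA, was present in 17.5% of members and 9.6% of all genes. These matches are a description of the letters in the windows and were not tested.

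In young controls, small heat shock proteins separated the tissues widely. Hspb7, a small heat shock protein of heart and skeletal muscle, reached a mean signal of 34467 ± 8555 (SD, n = 5) in the heart and 13846 ± 2247 in muscle against 24.8 ± 28.1 in the neocortex, where it was below the level required for testing. Cryab, the alphaB-crystallin of muscle and lens, reached 45507 ± 7837 in the heart, 29338 ± 5467 in muscle and 4077 ± 494 in the neocortex, and heart and muscle overlapped. The same order was found for Hspb1 (25164, 10934 and 1066), whereas the HSP110 protein Hsph1 was highest in the neocortex at 6072 ± 173 against 2050.1 ± 214 in the heart and 1867 ± 548 in muscle. Of the 45 members, 27 had their highest mean in the heart, 10 in the neocortex and 8 in muscle. Of these, 11, 5 and 3 did not overlap the tissue with the second highest mean, the only tissue compared. Tissue identity followed the labels: the cardiac myosin gene Myh6 had a mean signal of 87528 in the heart, the fast myosin gene Myh4 56703 in muscle and the synaptic gene Snap25 23653 in the neocortex, with each at most 95.2 elsewhere.

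Several arrays and groups stood apart and bear on the results below. In the heart of old control 4, Hspa1b was 23.3-fold and Hspa1a 13.6-fold above the median of the other 4 old controls, and Hsph1, Dnajb1 and Dnaja1 were 2.91-fold, 2.70-fold and 2.51-fold above. In muscle of resveratrol mouse 3, Hspa1a was 8.75-fold and Hspa1b 7.86-fold above the other 4. Values with and without these arrays are given where results rest on them. Heart young control 1 had 4 members over 1 log2 unit above the median of its group (9.30% of all genes), and muscle CR mouse 2 had 3 members as far below (11.8% of all genes). The old control hearts also differed from the other hearts in the 3′ minus 5′ difference of the beta-actin control probe sets, a measure of RNA integrity and labelling, which was 1.39 ± 0.16 (log2, SD, n = 5) against 0.72 in young controls, 0.79 under CR and 0.82 with resveratrol, with no overlap in any of these comparisons (exact permutation p = 0.00794, adjusted p = 0.0165 over 27 comparisons, the smallest the design allows). In muscle the mean log2 signal of the poly-A spike-in controls was 7.41 in young controls and 6.78 in old controls. It was 9.92 under CR and 10.03 with resveratrol. The Gapdh 3′ minus 5′ difference in muscle averaged 0.78 ± 1.40 in old controls, with old control 1 at 3.23, against -0.27 in both diet groups. Muscle young control 4 and old control 1 had beta-actin differences of 1.11 and 1.40, against at most 0.58 in the other muscle arrays. In the neocortex the beta-actin difference was 0.55 in old controls, 0.71 under CR and 0.89 with resveratrol. The part of these differences in the results was not tested.

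**Figure D1:**
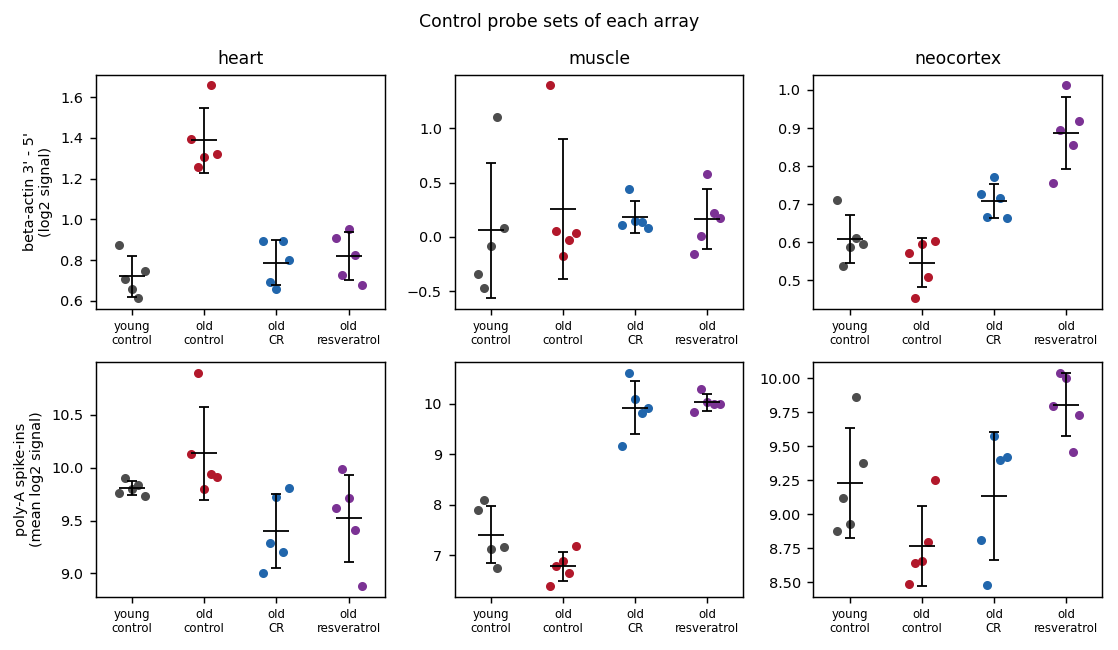
3′ minus 5′ difference of the beta-actin control probe sets (log2) and mean log2 signal of the poly-A spike-in controls for every array, by tissue and group, with points for arrays and bars for mean ± SD. The 5 old control hearts lie above all other hearts on the first measure, and the spike-in signal in muscle is lower in both control groups than in the diet groups.

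In the heart, more chaperone transcripts rose than fell with age, and more fell than rose with either diet. With age, 12 of the 45 members rose (background 7.05% of 13285 genes) and 4 fell (background 3.79%), with a median log2 difference of 0.18 against 0.03 over all genes. Under CR, 23 of 45 fell (background 14.1%) and 0 rose (background 7.94%), with a median of -0.37 against 0.00. With resveratrol 14 fell (background 10.5%) and 2 rose (background 7.08%), with a median of -0.21 against 0.01. All 3 comparisons share the 5 old control arrays, so the rise with age and the fall with diet are not independent. Without old control 4, the age count was 6 risen and 3 fallen, of which 8 were also called with it, and the CR count was 21 fallen. Shares over all genes were not computed for the fit without it, so these counts have no background. With any 1 heart array left out, 16 to 21 members were called with resveratrol. Groups did not overlap for 21 members lower and 1 higher under CR (background 12.2% and 6.82%), 11 lower and 1 higher with resveratrol (background 9.37% and 5.75%), and 8 higher and 1 lower with age (background 6.26% and 3.03%).

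**Figure D2:**
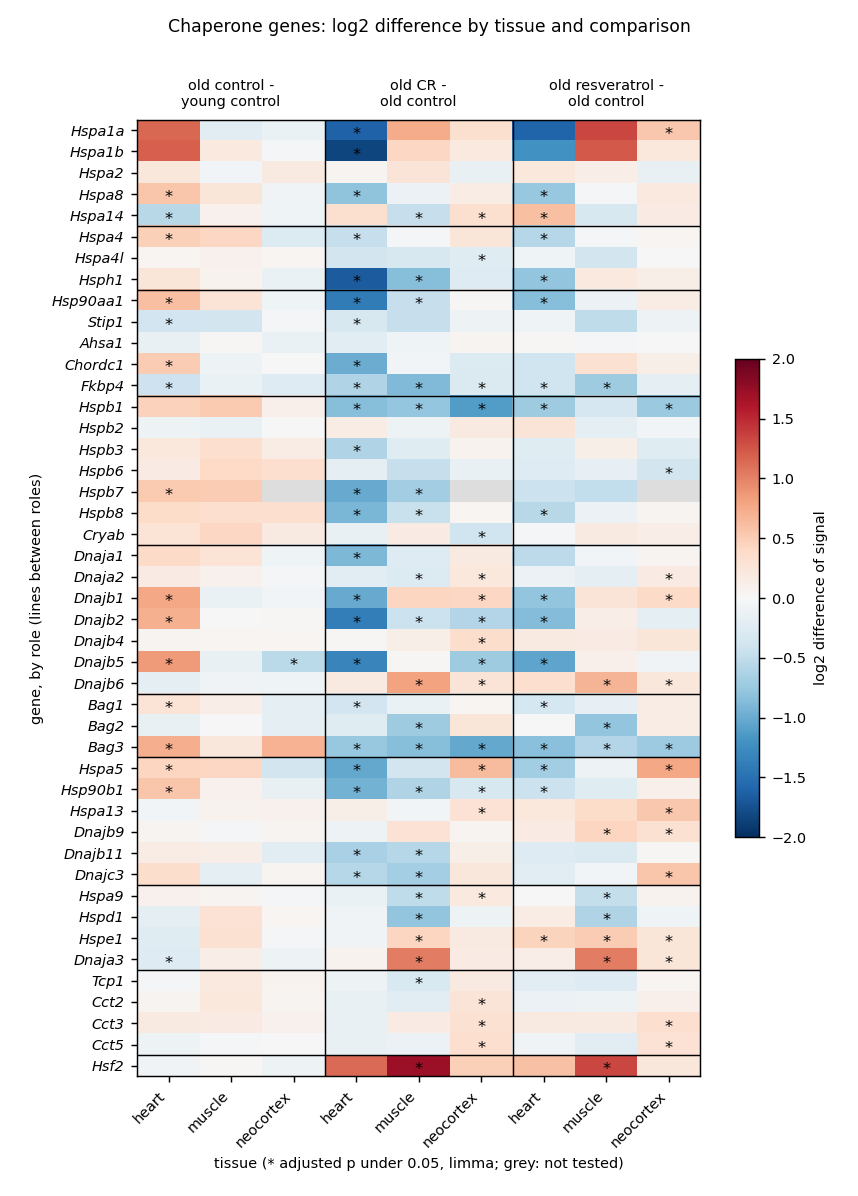
Log2 difference of each of the 45 measured chaperone genes (vertical axis, ordered by role) in each tissue for age, CR and resveratrol (horizontal axis), with colour for the size of the difference and a mark for limma adjusted p under 0.05. In the heart, 23 genes fell under CR and 0 rose, whereas in the neocortex 11 rose and 8 fell.

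Among the inducible HSP70 genes, Hspa1b and Hspa1a, near-identical copies whose probes may cross-hybridise and whose separate values are therefore uncertain, varied most. Heart signals of Hspa1b were 1107, 469.9, 354, 557 and 427 in young controls, 739, 719, 622, 15557 and 551 in old controls, 398, 307, 333, 311 and 385 under CR and 836, 767, 337, 436 and 448 with resveratrol. Signals of Hspa1a were 481, 239.5, 106, 256 and 231 in young controls, 251, 372, 294, 4236 and 328 in old controls, 146, 122, 199, 143 and 274 under CR and 219.6, 333, 217, 192 and 47.7 with resveratrol. Old control 4 lay far above every other heart for both genes, and for Hspa1b the CR arrays lay below all old controls also without it. Hspa1b fell under CR by 1.84 ± 0.58 (log2 scale, as all differences here, with SE; limma adjusted p = 0.0233), and the difference was -0.92 (adjusted p = 0.0182) without old control 4. Hspa1a fell by 1.62 ± 0.59 (adjusted p = 0.0484), but the call was lost without old control 4 (-0.87, adjusted p = 0.173) and in 17 of 29 alternatives in all. With age the differences were 1.2 for Hspa1b and 1.14 for Hspa1a, neither past the threshold, and that of Hspa1b was 0.29 without old control 4. The constitutive Hspa8 kept its 3 calls without that array (0.46 with age, -0.70 under CR and -0.66 with resveratrol). It rose with age by 0.55 ± 0.11 (adjusted p = 0.0022) and fell by 0.80 ± 0.11 under CR and 0.76 ± 0.11 with resveratrol, without overlap in any of the 3. Hspa14, an HSP70 relative bound to ribosomes, moved the other way, falling with age by 0.56 ± 0.15 and rising with resveratrol by 0.61.

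The HSP110 and HSP90 groups held some of the larger differences between the diets. Hsph1, the nucleotide exchange factor of the HSP70 cycle, had heart signals of 2191, 1809, 2054, 2322 and 1875 in young controls, 2030.3, 1895, 1807, 5716 and 2034 in old controls, 826, 755, 763, 707 and 751 under CR and 1746, 1928, 1469, 1146 and 921 with resveratrol. All 5 CR arrays lay below every other heart array. It fell by 1.66 ± 0.23 under CR (adjusted p = 9.47e-06) and by 0.79 ± 0.23 with resveratrol (adjusted p = 0.0161, or 0.0541 without resveratrol mouse 5). It was lower under CR than with resveratrol by 0.87 ± 0.23 (adjusted p = 0.0281, a call lost in 7 of 29 alternatives). Without old control 4 its diet differences were -1.35 and -0.48, both past the threshold. Signals of the inducible HSP90 gene Hsp90aa1 were 11308, 7394, 6875, 6702 and 6282 in young controls, 9579.8, 11536, 9289, 19040.4 and 9752 in old controls, 4203, 3907, 4709, 4429.8 and 4401 under CR and 7554, 7574, 5858, 5413 and 5396 with resveratrol. Here too the CR arrays lay below all other hearts, and the differences were -1.40 ± 0.17 under CR (adjusted p = 1.84e-06) and -0.86 ± 0.17 with resveratrol (adjusted p = 0.000709). Its rise with age of 0.60 ± 0.17 (adjusted p = 0.0217) was lost without old control 4 (0.41, adjusted p = 0.072) and without young control 5 (0.53, adjusted p = 0.0556). Among HSP90 co-chaperones, Chordc1 fell under CR by 0.99 ± 0.17, and Fkbp4, the immunophilin of steroid receptor complexes, fell with age (-0.41), under CR (-0.60) and with resveratrol (-0.39). With its probe sets averaged, all 3 calls of Fkbp4 were lost and the direction reversed (adjusted p = 0.910, 0.386 and 0.896). Stip1, which links HSP70 to HSP90, fell with age by 0.38 ± 0.11 and under CR by 0.32 ± 0.11, the latter call being lost in 20 of 29 alternatives, among them the fit without old control 4 (-0.22, adjusted p = 0.155).

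**Figure D3:**
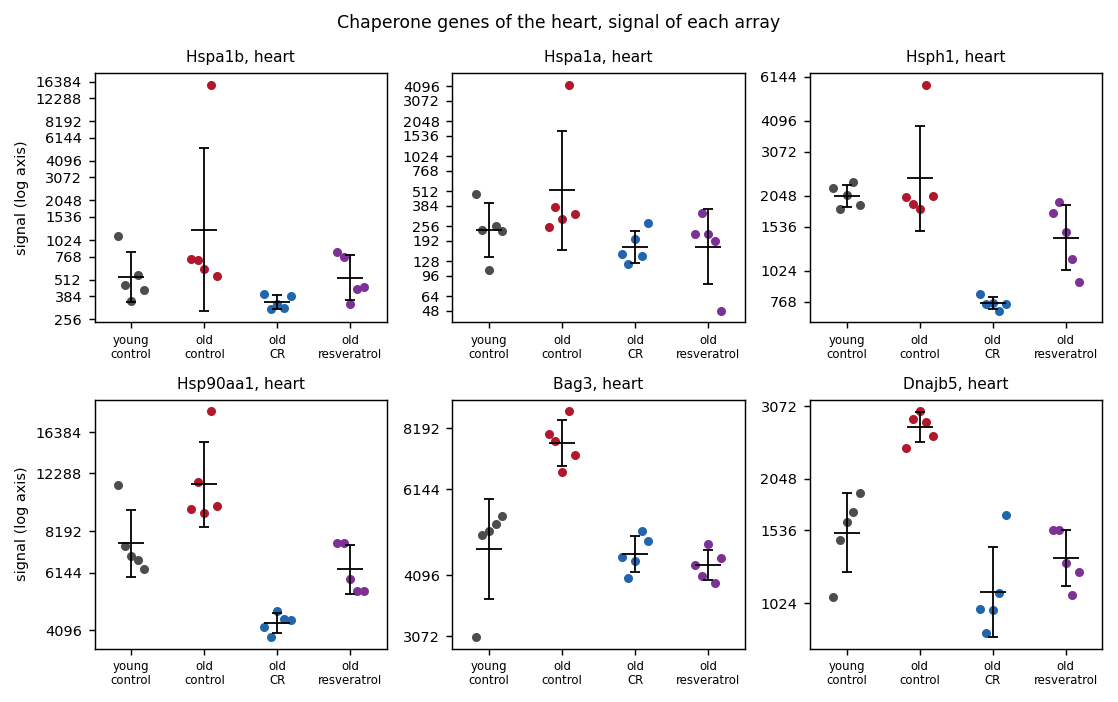
Heart signal of Hspa1b, Hspa1a, Hsph1, Hsp90aa1, Bag3 and Dnajb5 in every array (log axis), with points for the 5 arrays of a group and bars for mean ± SD of the log2 values. Old control 4 stands at 15557 for Hspa1b, while for Bag3 all 5 old controls (6657 to 8898) lie above every other heart.

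Of the 7 small heat shock proteins, 4 fell under CR in the heart (Hspb1, Hspb3, Hspb7 and Hspb8, background 14.1%). With resveratrol 2 fell (Hspb1 and Hspb8, background 10.5%), and 1, Hspb7, rose with age (background 7.05%). Hspb1, the actin-binding HSP27, had signals of 16259, 20748, 26177, 32259 and 30380.3 in young controls, 32003, 32484, 24672, 45432 and 36439 in old controls, 14458, 20889.6, 19366, 20592 and 18261 under CR and 20892, 22555, 16635, 17004 and 27208 with resveratrol. Every CR array lay below every old control, and the difference was -0.85 ± 0.17 under CR (adjusted p = 0.000752) and -0.71 ± 0.17 with resveratrol (adjusted p = 0.00484). Hspb7 rose with age by 0.52 ± 0.16 and fell under CR by 1.01 ± 0.16, and Hspb8, the partner of Bag3 in selective autophagy, fell by 0.92 ± 0.12 under CR and 0.56 ± 0.12 with resveratrol. The age call of Hspb7 was lost in 10 of 29 alternatives, and both calls of Hspb8 were lost with its probe sets averaged (adjusted p = 0.196 and 0.757). Cryab had differences of 0.28, -0.15 and -0.05 for age, CR and resveratrol, none past the threshold.

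Bag3, the co-chaperone that couples HSP70 and Hspb8 to autophagy in muscle, and the J-domain proteins Dnajb5 and Dnajb2 were among the members that rose with age and fell with both diets in the heart. Bag3 signals were 3056, 4942, 5049, 5218 and 5424 in young controls, 7967, 7707, 6657, 8898 and 7215 in old controls, 4464, 4051, 4378, 5042 and 4813 under CR and 4303, 4074, 4747, 3955 and 4435 with resveratrol. The old controls lay above all 15 other hearts, and the differences were 0.72 ± 0.12 with age (adjusted p = 0.000324), -0.75 ± 0.12 under CR (adjusted p = 6.1e-05) and -0.83 ± 0.12 with resveratrol (adjusted p = 2.78e-05). Dnajb2, a neuronal and muscle J-protein that sends ubiquitylated clients to the proteasome, had signals of 1804, 2084, 2112, 2220.2 and 2179 in young controls, 3424, 3241, 3021, 4201 and 3223 in old controls, 1261, 1284, 1277, 1397 and 1292 under CR and 2125, 1915, 1867, 1793 and 1665 with resveratrol. The groups separated into 3 levels, old controls highest and CR lowest, with differences of 0.71 ± 0.10 with age, -1.39 ± 0.10 under CR (adjusted p = 7.24e-10), -0.86 ± 0.10 with resveratrol and -0.52 ± 0.10 between CR and resveratrol (adjusted p = 0.00211). Dnajb5 signals were 1061, 1454, 1610.2, 1699 and 1894 in young controls, 2434, 2858, 2993, 2815 and 2606 in old controls, 992, 868, 984, 1081 and 1676 under CR and 1535, 1542, 1278, 1071 and 1215 with resveratrol. Again no old control overlapped another group, with differences of 0.85 ± 0.16, -1.33 ± 0.16 and -1.06 ± 0.16 for age, CR and resveratrol, of which the age difference dropped to 0.23 (adjusted p = 0.459) with probe sets averaged. Dnajb1 and Dnaja1, J-proteins of the stress-inducible HSP70 cycle, fell under CR by 1.01 ± 0.23 and 0.89 ± 0.23 (-0.72 and -0.62 without old control 4), and the rise of Dnajb1 with age (0.77) was lost without old control 4 (0.48, adjusted p = 0.0806).

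The 6 chaperones of the endoplasmic reticulum included 4 that fell under CR in the heart (background 14.1%) and 2, Hspa5 and Hsp90b1, that rose with age (background 7.05%). Hspa5, the HSP70 of this compartment known as BiP, fell by 1.02 ± 0.11 under CR (adjusted p = 7.99e-07) and 0.70 ± 0.11 with resveratrol (adjusted p = 0.00012), after a rise with age of 0.43. Dnajb11, a J-protein partner of BiP, had heart signals of 932, 1139, 1288, 973 and 921 in young controls, 972, 1195, 1091, 1385 and 1140.4 in old controls, 820.2, 759, 785, 742 and 578 under CR and 889, 999, 1014, 1178 and 775 with resveratrol. CR arrays lay below all old controls, with a difference of -0.65 ± 0.14 (adjusted p = 0.00104). Dnajc3, the J-protein also known as the inhibitor of the kinase PKR, had signals of 1520.3, 1115, 1008, 1295 and 1276 in young controls, 1288, 1448, 1718, 1814 and 1601 in old controls, 1154, 907, 1226, 1087 and 948 under CR and 1400.2, 1531, 1373, 1301 and 1164 with resveratrol, and fell under CR by 0.56 ± 0.12 (adjusted p = 0.00184, or 0.171 with a difference of -0.25 where its probe sets were averaged). Hsp90b1, the HSP90 of the same compartment, fell by 0.95 ± 0.12 under CR, although another probe set of it rose (0.66 under CR) and the call was lost with probe sets averaged (adjusted p = 0.385). That other probe set fell with age (-0.88), where the one used for Hsp90b1 rose (0.55). The age call of Hsp90b1 was lost and reversed in direction with probe sets averaged (limma adjusted p = 0.403). None of the 4 mitochondrial and 4 chaperonin members changed under CR. With resveratrol, Hspe1, the mitochondrial co-chaperonin, rose by 0.44 ± 0.09 (adjusted p = 0.000919) without overlap, against -0.06 under CR. The 2 diets differed by 0.50 ± 0.09 (adjusted p = 0.00137, or 0.0797 with its probe sets averaged).

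Markers of other cell types moved with the diets in the heart. Of 6 macrophage markers, 4 rose under CR and 4 with resveratrol, and their summed signal ranged from 9659 to 13350 in old controls, 15707 to 18824 under CR and 13361 to 20625 with resveratrol. The summed signal of the 3 adipocyte markers with a probe set was 26220 to 35901 in old controls and 42808 to 50610 under CR, and that of 3 red blood cell markers was 1858 to 3153 and 5535 to 22607. Of 5 fibroblast markers, 2 rose under CR and 3 with resveratrol, and their sum was 15461 to 32875 in old controls, 39147 to 46061 under CR and 32972 to 44326 with resveratrol, without overlap with the old controls. Cardiomyocyte markers summed to 324672 to 410545 in old controls and 365007 to 401099 under CR, so the groups overlapped. The part of these shifts in the chaperone differences was not tested.

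Between the diets, 7 heart members were lower under CR than with resveratrol (background 2.57%) and 0 higher (background 1.43%), namely Hsph1, Dnajb2, Chordc1 (-0.59), Hspb7 (-0.58), Hsp90b1 (-0.52), Hspe1 and the chaperonin subunit Cct3 (-0.33). The number ranged from 4 to 9 with single arrays left out, being 4 without CR mouse 2 or 5 or without resveratrol mouse 1, 2 or 3, and 11 without young control 1 and old control 4 together. Only Dnajb2 kept its call in all 29 alternatives. The call was lost in 16 of them for Hspb7, 13 for Chordc1 and 7 for Hsph1. With probe sets averaged it was lost for Cct3 (limma adjusted p = 0.652), Hspb7 (0.260), Hsp90b1 (0.197) and Hspe1 (0.0797).

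In muscle, more members fell than rose under CR, led by Fkbp4, Hsph1 and Bag3, whereas rises and falls were equal in number with resveratrol. With age, no member passed the threshold with age (background 0.257% rose and 0.171% fell of 12831 genes by limma, with 8 members at an unadjusted p under 0.05, and 4 at the methods' t-test threshold but 0 after Benjamini-Hochberg adjustment of that test), and 3 rose without young control 4. Under CR 17 of 45 fell (background 13.6%) and 4 rose (background 17.5%), with a median of -0.24 against 0.10 over all genes. With resveratrol 5 rose (background 9.42%) and 5 fell (background 9.26%), with a median of -0.06 against 0.07. Groups did not overlap for 10 members lower under CR (background 8.81%), and with resveratrol for 5 higher (background 8.42%) and 6 lower (background 9.55%).

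The members that rose were few and the same 4 led both diets: Hsf2, Dnaja3, Dnajb6 and Hspe1. Hsf2, a heat shock factor active in development and proteostasis, had muscle signals of 124, 69.1, 131, 118 and 41.6 in young controls, 119, 79.6, 68.0, 88.4 and 105 in old controls, 391, 297, 252.2, 195 and 404 under CR and 242, 299, 195, 213 and 202 with resveratrol. Both diet groups lay above all controls, by 1.72 ± 0.30 (adjusted p = 0.000231) and 1.33 ± 0.30 (adjusted p = 0.00341) over old controls, at a low absolute signal. Dnaja3, the mitochondrial J-protein, had signals of 3221, 3406, 3455, 6428 and 3652 in young controls, 5098, 3692, 4303, 3889 and 4468 in old controls, 8492, 8554, 8221, 8979 and 8971 under CR and 9623, 8266, 8731, 9454 and 7276 with resveratrol. It rose by 1.02 with either diet, yet another probe set of Dnaja3 fell (-1.2 under CR and -1.36 with resveratrol). Dnajb6, a J-protein that suppresses aggregation, had signals of 1338, 1235, 1079, 1399.9 and 1380.4 in young controls, 1336, 1309.9, 1328, 1141 and 1044 in old controls, 2268, 2924, 2037, 2111 and 1602 under CR and 2126, 1912, 1777, 2202 and 1847 with resveratrol. Neither diet group overlapped the controls, with rises of 0.81 ± 0.14 and 0.68 ± 0.14, but with the mean of all its probe sets the rises shrank to 0.13 and 0.08 and were not called. Hspe1 rose by 0.43 under CR (a call lost in 11 of 29 alternatives) and 0.51 with resveratrol, whereas its partner Hspd1, the mitochondrial HSP60, fell by 0.78 ± 0.09 and 0.61 ± 0.09.

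The falls under CR in muscle came from every family of the list except the heat shock factors. Hsph1 had muscle signals of 1634, 1556, 1585, 2841 and 1721 in young controls, 2561, 1733, 1838, 1657 and 1825 in old controls, 1107, 887, 989, 1166 and 1115 under CR and 2494, 1918, 2273, 2435 and 1862 with resveratrol. The CR arrays lay below all others, with differences of -0.86 ± 0.16 (adjusted p = 0.000462) relative to old controls and -1.06 ± 0.16 relative to resveratrol (adjusted p = 0.00539), while resveratrol mice overlapped old controls. Bag3 had signals of 3325, 3763, 3438, 3022 and 4034 in young controls, 3575, 4397, 4704, 3957 and 3977 in old controls, 2682, 1344, 2302, 2501 and 2869.7 under CR and 3244, 2627, 2621, 2543 and 2713 with resveratrol. It fell by 0.86 ± 0.16 under CR (adjusted p = 0.000416) and by 0.58 ± 0.16 with resveratrol (adjusted p = 0.0124), and no array of either diet reached the lowest old control. Hspb1 signals were 12942, 12081, 9936, 9262 and 10449.7 in young controls, 15424, 15249, 21412, 11846 and 15788 in old controls, 9454, 7142, 10166, 8241 and 11124 under CR and 11310.1, 12219, 13309.8, 12269.7 and 13087 with resveratrol, a difference under CR of -0.78 ± 0.14 (adjusted p = 0.000378) without overlap. Its age difference of 0.53 (adjusted p = 0.104) was past the threshold only without old control 4 (adjusted p = 0.0432) or CR mouse 2 (adjusted p = 0.0448). For Dnajb2 the signals were 1638, 1686, 1471, 1482 and 1457 in young controls, 1697, 1639, 1520.2, 1448 and 1482 in old controls, 1319, 912, 1271, 1113 and 1212 under CR and 1909.7, 1693, 1492, 1806 and 1617 with resveratrol, a smaller fall than in the heart (-0.43 ± 0.11, adjusted p = 0.00692).

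Fkbp4, in contrast, split its control groups. Its signals were 2437, 2203, 1933, 973 and 2143 in young controls, 973, 2038, 1867, 2073 and 1752 in old controls, 885, 979.9, 908, 851 and 942 under CR and 1182, 1003, 1050.2, 969 and 951 with resveratrol. Young control 4 and old control 1 lay at the level of the diet groups, so the fall under CR (-0.88 ± 0.21, adjusted p = 0.00341) came with overlap. These were the muscle arrays with the highest beta-actin 3′ minus 5′ differences (1.11 and 1.40), and the part of this in the Fkbp4 signals was not tested. The resveratrol call was lost without old control 2 (adjusted p = 0.0582) or 4 (adjusted p = 0.0576), and the mean of all probe sets gave 0.05 and 0.20 in the other direction. Among endoplasmic reticulum chaperones, Dnajc3 had muscle signals of 1808, 1843, 1689, 1779 and 2124 in young controls, 1765, 1759.9, 1461, 1517 and 1683 in old controls, 1007, 1049.5, 1104, 1121 and 852 under CR and 1411, 1599, 1579, 1668 and 1574 with resveratrol. It fell under CR by 0.68 ± 0.11 (adjusted p = 9.15e-05), and CR lay below resveratrol by 0.61 ± 0.11 (adjusted p = 0.009). Dnajb11 signals were 641, 792, 841, 804 and 739 in young controls, 866, 827, 711, 1013 and 783 in old controls, 507, 629, 509, 682 and 509.8 under CR and 767, 595, 771, 681 and 613 with resveratrol, a difference of -0.57 ± 0.13 under CR (adjusted p = 0.00294) without overlap. Differences of the inducible HSP70 genes with resveratrol were positive in muscle and did not pass the threshold: Hspa1a differed by 1.33 ± 0.47 (adjusted p = 0.0536) and Hspa1b by 1.23 ± 0.46 (adjusted p = 0.0655), or by 0.68 and 0.63 without resveratrol mouse 3, and Hspa1b passed without old control 1 (1.45, adjusted p = 0.0367). Of 5 macrophage markers tested in muscle, 3 rose with each diet, their sum ranging from 4036 to 5357 in old controls, 5439 to 10594 under CR and 5647 to 12439 with resveratrol. Of 5 endothelial markers, 3 fell with each diet, their sum ranging from 2398 to 3897 in old controls, 1159.7 to 1993 under CR and 1464 to 2076 with resveratrol, without overlap. The part of these markers in the results was not tested. Between the diets, Hsph1, Dnajc3 and Dnajb2 were the 3 members lower under CR (background 0.304%), and 0 were higher (background 0.257%). Of 29 alternatives, the call was lost in 1 for Hsph1, 3 for Dnajc3 and 5 for Dnajb2.

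In the neocortex the direction of the members was mixed. With age, 1 of 44 tested members fell (background 0.383% of 13057 genes) and 0 rose (background 1.08%). Under CR 11 rose (background 13.1%) and 8 fell (background 17.5%), with a median of 0.16 against -0.03 over all genes. With resveratrol 12 rose (background 12.3%) and 3 fell (background 13.9%), with a median of 0.12 against -0.01. The balance under CR turned to 9 risen and 10 fallen without CR mouse 3 and likewise without old control 5. Groups did not overlap for 6 members higher (background 8.33%) and 4 lower (background 11.5%) under CR, and for 9 higher (background 8.62%) and 1 lower (background 9.84%) with resveratrol.

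Hspb1 and Bag3, at far lower signals than in striated muscle, fell in the neocortex too. Hspb1 had neocortex signals of 1191, 1169.6, 1088, 815 and 1066 in young controls, 1256, 1523, 1209, 983 and 811 in old controls, 564, 438, 647, 571 and 419.9 under CR and 688, 817, 799, 647 and 478 with resveratrol. All CR arrays lay below all old controls, a difference of -1.12 ± 0.16 (adjusted p = 2.07e-05), while 1 of the old controls fell among the resveratrol arrays (-0.75 ± 0.16, adjusted p = 0.00148). Bag3 signals were 127, 147, 149, 163 and 121 in young controls, 245, 282, 183, 259 and 190.2 in old controls, 92.0, 98.7, 151, 136 and 97.4 under CR and 174, 99.1, 181, 161 and 102 with resveratrol. The old controls lay above every other group, and the differences of -1.02 ± 0.20 under CR (adjusted p = 0.000398) and -0.72 ± 0.20 with resveratrol (adjusted p = 0.00834) passed the threshold, whereas the age difference of 0.70 ± 0.20 did not (adjusted p = 0.0718). Dnajb2 had signals of 1667, 1700.2, 1752, 1755 and 1657 in young controls, 1625, 1852, 1636, 1670.4 and 1941 in old controls, 1015, 1042, 1208, 1452 and 1143 under CR and 1562, 1653, 1602, 1469.6 and 1392 with resveratrol. CR alone stood below the old controls (-0.58 ± 0.08, adjusted p = 2.06e-05), and it was lower than resveratrol by 0.40 ± 0.08 (adjusted p = 0.00559). Dnajb5 signals were 1658, 2532, 2661, 2797 and 2541 in young controls, 1654, 1729, 1810.4, 1446 and 1664 in old controls, 833, 1017, 1116, 1023 and 1073 under CR and 1815, 1597, 1700.5, 1231 and 1581 with resveratrol. In contrast to the heart it fell with age, by 0.53 ± 0.12 (adjusted p = 0.0269), a call that was lost (adjusted p 0.0658 to 0.0947) on leaving out young control 2, 3, 4 or 5 or old control 4, and it fell under CR (-0.72 ± 0.12, adjusted p = 0.000103).

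**Figure D4:**
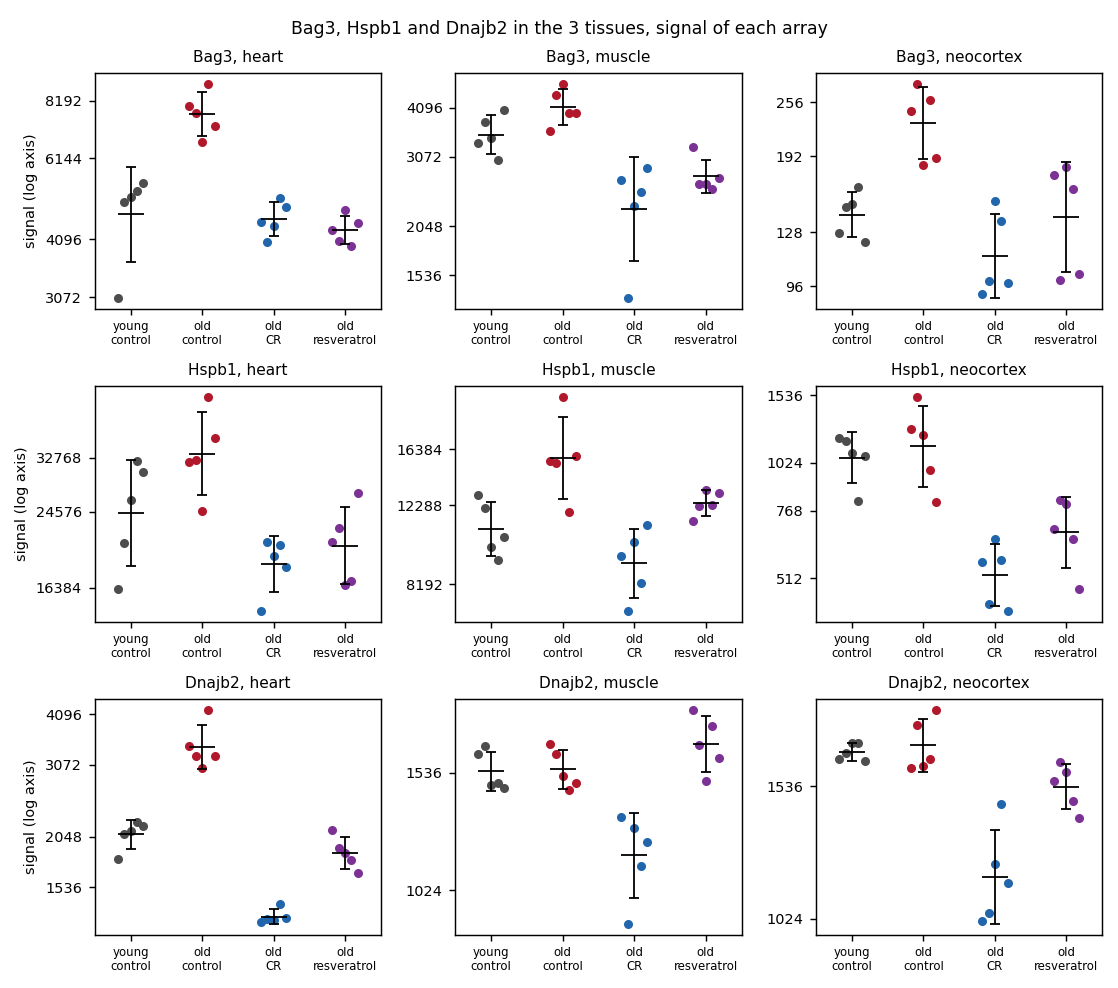
Signal of Bag3, Hspb1 and Dnajb2 in every array of the heart, muscle and neocortex (log axis), with points for the 5 arrays of each group and bars for mean ± SD of the log2 values. For each gene and tissue the CR arrays lie below the old control arrays without overlap.

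Several chaperones of the endoplasmic reticulum rose in the neocortex. Hspa5 signals were 7458, 6433, 5369.9, 5305 and 5878 in young controls, 5520.2, 5077, 5141, 3894 and 4109.9 in old controls, 9189, 6051, 8476, 7165 and 5959.9 under CR and 8385, 8497, 7699.8, 7425 and 8199.7 with resveratrol. Both diet groups exceeded all old controls, by 0.63 ± 0.12 (adjusted p = 0.000307) and 0.77 ± 0.12 (adjusted p = 4.43e-05). Dnajc3 had signals of 1102, 904, 963, 1026 and 822 in young controls, 1038, 1088, 997, 1136 and 774 in old controls, 1209, 1036, 1136, 1275 and 1193 under CR and 1534, 1501, 1497, 1359 and 1421 with resveratrol. It rose with resveratrol by 0.55 ± 0.10 (adjusted p = 0.000169) and differed by 0.23 under CR (adjusted p = 0.0769, or 0.0459 without old control 4). With resveratrol Hspa13 and Dnajb9 rose as well, by 0.55 and 0.31, so that 4 of the 6 members of this compartment rose (background 12.3%). Under CR 2 rose (Hspa5 and Hspa13, background 13.1%) and 1 fell (Hsp90b1, -0.31, background 17.5%). With its probe sets averaged, Hspa13 lost its resveratrol call (limma adjusted p = 0.308). The CR call was lost in 8 of 28 alternatives for Hspa13 and in 3 of 28 for Hsp90b1. In the cytosol, Hspa1a rose with resveratrol by 0.54 (adjusted p = 0.0454, a call lost in 16 of 28 alternatives), and Dnajb1 rose by 0.42 under CR and 0.38 with resveratrol. Dnajb6 had signals of 6589, 6616, 6394, 6103 and 7045 in young controls, 6391, 5679, 6519, 5938 and 6237 in old controls, 7131, 7513, 7392, 7428 and 7353 under CR and 7108, 6825, 7251, 7116 and 7674 with resveratrol, both diets above all old controls (0.26 ± 0.05 and 0.23 ± 0.05), although the mean of its probe sets differed by only 0.02 in each. The chaperonin subunits Cct2, Cct3 and Cct5 rose under CR by 0.26, 0.30 and 0.33, and Cct3 and Cct5 with resveratrol by 0.33 and 0.29. With its probe sets averaged, Cct3 lost its CR call (adjusted p = 0.396) and reversed direction with resveratrol (adjusted p = 0.943). Between the diets, 9 members were lower under CR (background 5.62%) and 0 higher (background 3.66%), led by Dnajb5 (-0.64), Cryab (-0.52) and Hsp90b1 (-0.42), and 5 were called without CR mouse 5 or without resveratrol mouse 2 or 4. With probe sets averaged, the calls of Dnajb5 (limma adjusted p = 0.0607), Cryab (0.916) and Hsp90b1 (0.449) were lost. Of 5 macrophage and microglia markers, 4 rose with resveratrol and 3 were lower under CR than with resveratrol, with sums of 7419 to 8732 in old controls, 6608 to 8186 under CR and 8545.5 to 12409 with resveratrol. Of 5 astrocyte markers 3 fell under CR and of 6 neuron markers 3 fell with resveratrol, and the part of all these markers in these results was not tested.

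Across tissues, 5 members fell under CR in all 3, namely Bag3, Hspb1, Dnajb2, Hsp90b1 and Fkbp4, against 1.42% of the 11111 genes tested in every tissue, and 0 of 44 members rose in all 3 (background 0.684%). With the probe sets of a gene averaged, Fkbp4 lost its call in all 3 tissues, with a reversed direction in the heart and muscle, and Hsp90b1 lost its call in the heart (adjusted p = 0.385) and neocortex (adjusted p = 0.105). Bag3 was the member that fell with resveratrol in all 3 (background 0.486%), and Hspe1 the member that rose in all 3 (background 0.513%; 0.44, 0.51 and 0.24). The Hspe1 call was lost in 5 of 29 alternatives in muscle and 11 of 28 in the neocortex. Whether the size of a diet difference itself depended on the tissue was tested in 1 model of 60 arrays and 11111 genes. Of 44 members, the CR difference was lower in the heart than in the neocortex for 18 (background 6.98%) and higher for 0 (background 4.28%). It was lower in the heart than in muscle for 14 (background 15.9%) and higher for 3 (background 11.5%), and lower in muscle than in the neocortex for 12 (background 11.5%) and higher for 5 (background 11.6%). Hspa5 differed widely, the heart minus neocortex value of its CR difference being -1.64 (log2), with Hsp90aa1 at -1.42, Hsph1 at -1.40, Dnajb2 at -0.80 and Dnajc3 at -0.79. For resveratrol, 13 members were lower in the heart than in the neocortex (background 4.89%) and 0 higher (background 2.52%), and for age in the same pair of tissues 0 were lower (background 2.80%) and 6 higher (background 2.12%). Without heart old control 4, the members lower in the heart than in the neocortex were 14 for CR and 8 for resveratrol, those higher for age were 4, and those lower in the heart than in muscle under CR were 10.

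Many members are read by more than 1 probe set, which allowed the calls to be compared within genes. Of the other probe sets of members called under CR, 24 of 28 in the heart, 13 of 26 in muscle and 25 of 34 in the neocortex differed in the same direction. With resveratrol the numbers were 16 of 20, 3 of 9 and 16 of 22. Hspb1 was the same in each tissue, its other probe set falling under CR by 0.76, 0.73 and 1.10 in the heart, muscle and neocortex on the log2 scale, and the other 3 probe sets of Hspa8 fell by 0.78, 0.70 and 1.11 in the heart. Probe sets past the threshold in the opposite direction belonged to Hsp90b1 and Hspa4 in the heart and to Dnaja3, Dnaja2 and Hspa9 in muscle. The called members Bag1, Bag2, Bag3, Dnajb2, Dnajb9, Dnajb11, Chordc1 and Stip1 rest on 1 probe set each. So do Hspb3, Hspb6, Hspd1, Hspa1a, Tcp1 and Cct5. The second probe set of Hsf2 was not tested, so this comparison could not be made for any of these genes.

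**Figure D5:**
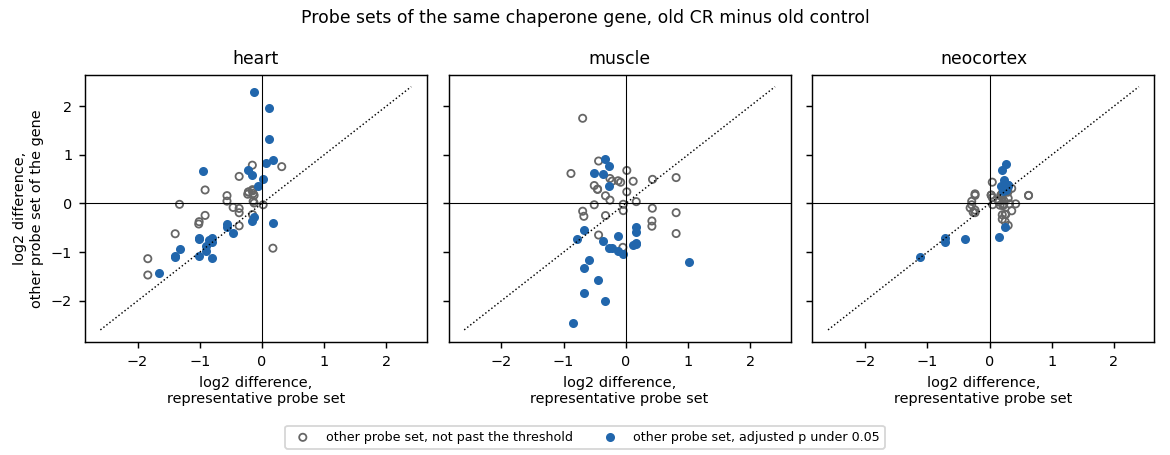
CR log2 difference of the probe set used for each tested chaperone gene, called or not, on the horizontal axis. The vertical axis gives that of the other tested probe sets of the same gene, in the heart, muscle and neocortex. For genes called under CR, 24 of 28 other probe sets in the heart fall on the same side of 0, against 13 of 26 in muscle.

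Of genes of neighbouring pathways, 25 of endoplasmic reticulum stress outside the 48 were tested in the heart. With age 6 of them rose (background 7.05%). Under CR 11 fell (background 14.1%) and 1 rose (background 7.94%), and with resveratrol 6 fell (background 10.5%) and 1 rose (background 7.08%). Atf6, a sensor of this stress, rose with age (0.99) and fell with both diets (-0.83 and -0.99), Manf and Sdf2l1 fell under CR (-1.30 and -1.22), and Herpud1, a component of degradation from this compartment, rose (1.24). Serpinh1, the collagen chaperone HSP47, fell under CR in the heart (-1.84), muscle (-2.28) and neocortex (-0.78). Of 31 other cytosolic chaperones in the heart, 1 rose and 0 fell with age (background 7.05% and 3.79%). Under CR 11 of them fell and 3 rose (background 14.1% and 7.94%). With resveratrol 9 of them fell and 1 rose (background 10.5% and 7.08%). Under CR 2 of 31 fell and 3 rose in muscle (background 13.6% and 17.5%). In the neocortex 7 of 28 fell and 6 rose under CR (background 17.5% and 13.1%). With resveratrol 10 of these 28 fell and 3 rose there (background 13.9% and 12.3%). Fkbp5, the glucocorticoid-inducible relative of Fkbp4, rose under CR in all 3 tissues (1.19, 1.33 and 0.95). The probe set used for Fkbp4 fell there. With the probe sets of Fkbp4 averaged its calls were lost, and the direction reversed in the heart and muscle. Of 9 other chaperonin and prefoldin subunits in the neocortex, 6 rose under CR (background 13.1%), 4 rose with resveratrol (background 12.3%) and 0 fell with either diet.

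Body temperature and time of day bear on heat shock genes, and markers of both were listed. Cirbp, the cold-inducible RNA-binding protein, rose under CR in the heart (1.24) and neocortex (0.89) and fell in muscle (-0.81), where it also fell with resveratrol (-1.31). The clock output gene Dbp fell under CR in the heart (-0.74) and muscle (-1.72) and rose with resveratrol in the heart (1.18). Under CR 3 of 12 clock genes fell in the heart (background 14.1%) and 5 of 11 in muscle (background 13.6%). In the neocortex 3 of 12 fell (background 17.5%) and 1 rose (background 13.1%). Among immediate early genes, 7 of 9 fell under CR in the neocortex (background 17.5%). In the heart 1 of 8 fell and 1 rose (background 14.1% and 7.94%). The part of body temperature, time of day and activity in the chaperone differences was not tested.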

How the data were processed

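Total RNA of the heart, gastrocnemius muscle and neocortex was hybridised to 60 Affymetrix arrays, 5 for every combination of tissue and group, and arrays were grouped by their labels. The deposited values were linear signal intensity values per probe set, which the authors obtained with GCOS 1.2 and scaled to a 2% trimmed mean of 500. Here arrays were rescaled to a common 2% trimmed mean, floored at 1 and transformed to log2. For a gene with several probe sets the brightest on average was kept, leaving out 64 control probe sets, 932 with several symbols and 9160 without a symbol. In each tissue, genes reaching the 40th percentile of mean signal (60.4, 69.3 and 57.3 in the heart, muscle and neocortex) were tested with limma 3.58.1 (R 4.3.3) on 4 groups, with an intensity trend and Benjamini-Hochberg adjustment over all genes tested (threshold 0.05). Values given after ± are SE for differences and SD for levels. Array quality values were compared by exact two-sided permutation tests of 5 against 5 arrays. A member was called without overlap where all arrays of a group lay beyond all arrays of the other. Signals of every array are given for the 4 members with the largest called difference in each tissue and for up to 8 called alike in at least 2 tissues, other members by role. The members and lists were chosen with earlier results of these data known. Procedures were tested on simulated data. The number of arrays limits the precision. Alternatives were another normalization, filter, probe set rule or test, and each array left out.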

Additional observations from a re-analysis of the deposited data

Results flagged for a closer look

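Single arrays lay far from the other 4 of their group in 15 of the 108 groups examined for the members given in full (chance gives about 1 in 20). In the heart, old control 4 was the highest for Hspa1b (15557), Hspa1a (4236) and Hsph1 (5716). Young control 1 was the highest for Hsp90aa1 (11308) and the lowest for Bag3 (3056). CR mouse 5 was the lowest for Dnajb11 (578), CR mouse 4 the highest for Dnajb2 (1397), and resveratrol mouse 5 the lowest for Hspa1a (47.7). In muscle, young control 4 and old control 1 shared a pattern, both being lowest for Fkbp4 (973 in each) and highest for Hsph1 (2841 and 2561), and young control 4 was also highest for Dnaja3 (6428). Both also had the highest beta-actin 3′ minus 5′ differences of the muscle arrays (1.11 and 1.40), the part of which was not tested. Resveratrol mouse 1 was the highest of its group in muscle for Bag3 (3244), and young control 1 the lowest in the neocortex for Dnajb5 (1658).

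The CR difference of several members differed between tissues in the model of all arrays (limma adjusted p under 0.05, log2 differences of differences). Heart minus muscle was -2.37 for Hspa1a, -2.26 for Hspa1b, -1.34 for Dnajb5, -0.96 for Dnajb2, -0.96 for Dnaja3, -0.94 for Hsp90aa1, -0.81 for Hsph1, -0.64 for Hspa5 and -0.63 for Dnajb6. Without heart old control 4, that of Hspa1a was -1.61 (adjusted p = 0.0381), and those of Hspa1b (-1.34, adjusted p = 0.0595), Hsph1 (-0.49, adjusted p = 0.0742) and Hspa5 (-0.51, adjusted p = 0.0694) were not past the threshold. Heart minus neocortex was -1.64 for Hspa5, -1.42 for Hsp90aa1, -1.40 for Hsph1, -0.80 for Dnajb2, -0.79 for Dnajc3 and -0.77 for Dnajb11. Muscle minus neocortex was positive for Hsf2 (1.24), Dnaja3 (0.85), Dnajb5 (0.73) and Dnajb6 (0.55), and negative for Hspa5 (-1.0), Dnajc3 (-0.90), Dnajb11 (-0.69) and Fkbp4 (-0.59).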

How the results depend on the processing

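For the members given with every array, 2253 values kept their direction and side of the threshold, 47 lost the call, 17 gained it and 2 reversed, while 316 counts of called members moved by less than 1.5 times, 38 moved further and 2 reversed in balance. These reversed values were those of Fkbp4 in muscle with probe sets averaged per gene, at 0.045 under CR and 0.20 with resveratrol. Among other called members, averaging probe sets also reversed Fkbp4, Hsp90b1 (age, resveratrol) and Hspa4 (age) in the heart, Hsp90aa1, Hspa14 and Hspb7 under CR in muscle, and Cct3 with resveratrol in the neocortex. The reversed counts were those of the neocortex under CR, 19 called members without CR replicate 3 and 19 without old control replicate 5. Fitting only the groups compared gave 7 called members for age in the heart, 11 for CR against resveratrol in the heart, 1 for that comparison in muscle and 2 for age in the neocortex. Averaging probe sets gave 7 for age, 10 for resveratrol and 2 for CR against resveratrol in the heart, 12 for CR in muscle, and 10 for CR and 2 for CR against resveratrol in the neocortex. The methods' t-test after Benjamini-Hochberg adjustment gave 5 for age and 3 for CR against resveratrol in the heart, 0 for CR against resveratrol in muscle, and 0 for age and 3 for CR against resveratrol in the neocortex. At its own threshold it gave 9 and 11 in the heart, 4 for age and 5 for CR against resveratrol in muscle, and 2 for age in the neocortex. Without heart young control 1 and old control 4 together, an alternative chosen after seeing the data, 11 members differed between the diets in the heart. The cause was not tested.

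With 1 array left out at a time, called members numbered 9 to 18 for age, 20 to 26 for CR, 16 to 21 for resveratrol and 4 to 9 between the diets in the heart, 0 to 3, 17 to 23, 8 to 14 and 2 to 4 in muscle, and 0 to 1, 16 to 20, 11 to 16 and 5 to 9 in the neocortex. Same-numbered arrays did not pair: 0, 2 and 3 of 30 pairs in the heart, muscle and neocortex had correlated deviations over 0.1. With the replicate number as a block, 17, 24, 16 and 7 members were called for age, CR, resveratrol and between diets in the heart, 0, 20, 12 and 3 in muscle, and 1, 19, 14 and 9 in the neocortex. Signals of Hsf2 in control muscle went down to 41.6, below the mean of 69.3 required for testing there, so its diet differences rest on control arrays near that limit.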

Other observations

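Of 7 listed targets of heat shock factors outside the 48 genes, 5 were tested. Under CR 1 of these 5, Serpinh1, fell and 0 rose in each of the heart, muscle and neocortex. The background of falls was 14.1%, 13.6% and 17.5%, and that of rises 7.94%, 17.5% and 13.1%. In the neocortex Hsf4, a heat shock factor, fell under CR by 1.17 and with resveratrol by 1.03 on the log2 scale. The clock genes Per1 and Per2 went opposite ways with resveratrol in the neocortex, where Per1 fell (-0.41) and Per2 rose (0.54).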
